A study of Mus musculus and Homo sapiens with 24 samples.

Results

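Expression of 10 heat shock chaperone genes was examined in HepG2 cells, a human hepatoma line that serves as a model of the hepatocyte. The genes were HSF1, HSPA1A, HSPA1B, HSPA8, DNAJB1, HSPH1, BAG3, HSP90AA1, HSPB1 and HSPD1, found by symbol as 10 of the 28278 genes in the HepG2 table. The study asked how estrogen and hypoxia, alone and together, act on liver cells in relation to the anticoagulant Protein S. RNA-Seq libraries came from 12 cultures in 4 groups of 3, with replicates A, B and C in each. Control cultures had neither agent. CoCl2 cultures received 50 µM cobalt chloride, used here as a chemical stand-in for low oxygen because cobalt keeps the oxygen-regulated factor HIF1α from being degraded. Estrogen cultures received 25 nM β-estradiol, and CoCl2-Estrogen cultures received both agents at these doses. Exposure lasted 4 hours in the 3 treated groups. All groups share 1 transformed line, and each culture was a bulk sample. The sample labels place the cells in EMEM with serum overnight, whereas the cell culture methods of the study add a night without serum. Whether Control cultures received the solvents is not given in the sources used here.

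Heat shock chaperones hold, fold or refold other proteins. HSF1, the master transcription factor of the heat shock response, is kept inactive by chaperones in unstressed cells, and unfolded proteins release it to form trimers that switch on chaperone genes. HSP70 proteins (HSPA1A, HSPA1B, HSPA8) bind unfolded stretches, J-domain proteins such as DNAJB1 deliver clients and start ATP hydrolysis, and HSPH1 and BAG3 exchange the nucleotide. HSP90 finishes the folding of kinases and steroid receptors, the estrogen receptor among them. HSPB1 is an ATP-independent holder of unfolded proteins, and HSPD1 is the mitochondrial chaperonin. Hepatocytes secrete large amounts of protein and carry a high folding load.

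Counts summed to between 13592637 and 21701480 per library, and levels are given as CPM, counts scaled to a common library size, after TMM scaling over the 12 libraries. TMM, the trimmed mean of M values, had factors from 0.957 to 1.07. No gene length was available, so levels, and ratios or sums of counts over genes, are compared only between groups. Replicates differed beyond sampling noise, with a chi-square per degree of freedom from 6.50 to 65.9, and CoCl2 replicate B, the shallowest library, stood apart from CoCl2 replicates A and C (65.9 and 46.0). All 10 hepatoma markers checked, ALB and AFP among them, exceeded 1 CPM in every group. Their summed level was 28320 to 30850 CPM in Control, 30780 to 32500 in CoCl2, 15820 to 17150 in Estrogen and 17170 to 18010 in CoCl2-Estrogen cultures. PTPRC and CD3E of leukocytes, COL1A2, COL3A1 and DCN of fibroblasts and KDR of endothelium were at 0 in all 12 libraries. Of 5 leukocyte markers, 2 exceeded 1 CPM, LYZ (mean of 1161 CPM in Control) and CD68 (29.1 CPM in Control). The leukocyte markers summed to 839 to 1269 CPM over the libraries. At most 1 of 5 endothelial markers exceeded 1 CPM (summed, 0.808 to 3.22). The fibroblast markers, with 1 of 5 over 1 CPM, summed to 12.9 to 22.9 CPM without estrogen and to 0.725 to 1.46 CPM with it. That 1 was COL1A1, at a mean of 20.82 CPM in Control and 1.155 CPM in Estrogen cultures.

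The 10 genes together took 0.708% ± 0.00537 of all counts in Control (SD, n = 3), 0.745% ± 0.0324 in CoCl2, 0.270% ± 0.00169 in Estrogen and 0.377% ± 0.0124 in CoCl2-Estrogen cultures. Estrogen lowered 8 of the 10 (adjusted p at most 0.05), where 34.2% of all tested genes were lower and 34.7% higher. HSPB1, HSPA8 and HSPA1A fell most, while HSF1 and BAG3 were not called (BAG3 was called lower when scaled by upper quartiles or library totals). CoCl2 alone called HSPA1A and BAG3 higher, beside 1.31% of all tested genes, and these calls were lost in 4 and 3 of the 6 fits that left out 1 library. Where both agents were present, 8 genes stood above their level with estrogen alone (8.14% of all tested genes), and 7 stayed below Control (33.2%). From highest to lowest, group means ran CoCl2, Control, CoCl2-Estrogen, Estrogen in 7 of the 10 genes and in 11.6% of all tested genes. That order was the most frequent among the 10 genes, so setting it beside all genes is not a test of it. HSF1, HSPA8 and BAG3 had other orders. Among the 7, neighbouring groups overlapped in HSPH1, HSP90AA1, HSPB1 and DNAJB1, and only HSPA1A was called in CoCl2 against Control. In bulk libraries, fewer cells with a transcript and less of it per cell cannot be told apart.

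**Figure D1:**
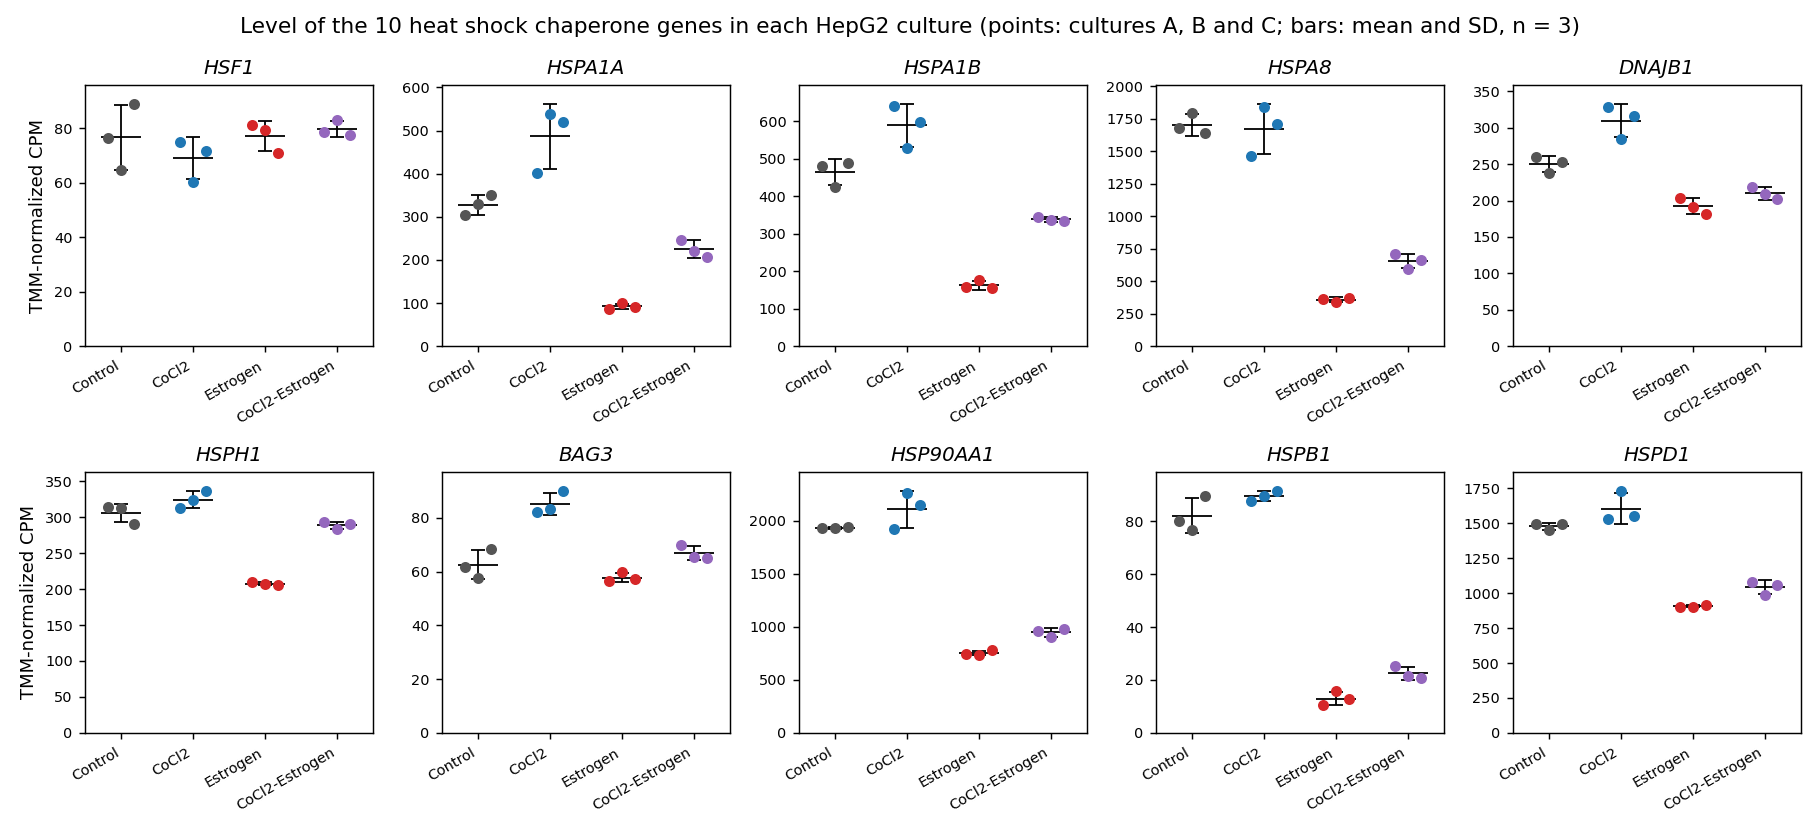
TMM-normalized CPM (y axis, from 0) of each gene in the 12 HepG2 cultures, 1 panel per gene with its own scale. Points are cultures A, B and C from left to right in each group, and bars are the mean and SD (n = 3). In 8 panels the 3 Estrogen points lie below the 3 Control points, HSF1 and BAG3 being the exceptions (35.3% of all tested genes separate this way), and in 8 panels the CoCl2-Estrogen points lie above the Estrogen points, HSF1 and DNAJB1 being the exceptions (13.6% of all tested genes).

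Each comparison used the 6 libraries of its groups and the quasi-likelihood test of edgeR, with p adjusted over all tested genes by the Benjamini-Hochberg method, and a gene with an adjusted p of at most 0.05 is called changed. All 10 genes passed the filter on low counts in each comparison. In CoCl2 against Control, 2 of the 10 were called higher and 0 lower, where 1.31% of 15872 tested genes were called higher and 0.132% lower. Of all tested genes, 229 were called and 1789 had an unadjusted p under 0.05. The median log2 change was 0.13 over the 10 genes and -0.00328 over all tested genes. In Estrogen against Control, 0 were called higher and 8 lower, beside 34.7% higher and 34.2% lower among 16281 tested genes. The median change was -1.05, against -0.004 over all genes, and the 8 fell by 0.39 to 2.69 on the log2 scale.

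In CoCl2-Estrogen against Control, 7 of the 10 genes were called lower and 0 higher, with 33.2% of 16201 tested genes called lower and 32.3% higher. Against CoCl2 alone, the addition of estrogen left 9 lower and 0 higher, with 30.8% lower and 30.1% higher among 16200 genes. In CoCl2-Estrogen against Estrogen the direction turned, with 8 of the 10 higher and 0 lower, whereas 8.14% of 15925 genes were higher and 8.85% lower. The medians of the 10 genes in these 3 comparisons were -0.51, -0.73 and 0.43, beside -0.00898, -0.00271 and 0.00977 over all tested genes. No member was called against these directions by edgeR or by DESeq2, and 0 had an unadjusted p under 0.05 that way in the pairwise comparisons. Comparisons against Control share the Control cultures, and both comparisons of CoCl2-Estrogen with a single agent share the CoCl2-Estrogen cultures. The summed hepatoma markers moved with estrogen as well, and their part in the lower chaperone levels was not tested.

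**Figure D2:**
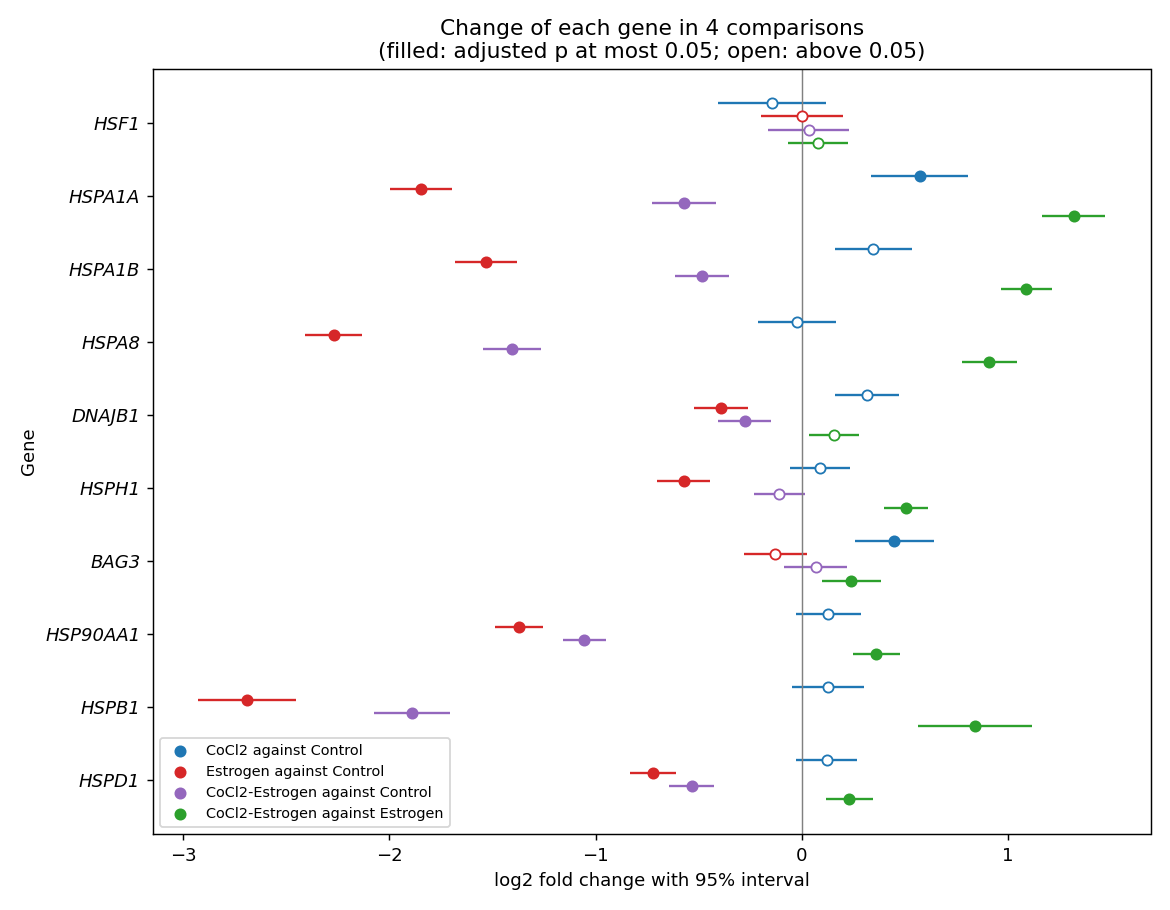
The log2 fold change of each gene (x axis, 95% interval as a line) in 4 comparisons, with genes on the y axis. Filled points passed an adjusted p of 0.05 and open points did not. Estrogen points of HSPB1, HSPA8 and HSPA1A lie farthest left, at -2.69, -2.27 and -1.85, and HSF1 has 4 open points near 0.

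HSF1 itself was read at 76.4, 64.7 and 88.8 CPM in Control cultures A, B and C. It was at 75.1, 60.3 and 71.5 CPM in CoCl2 and at 81.3, 79.3 and 70.9 CPM in Estrogen cultures. CoCl2-Estrogen cultures gave 78.8, 83.0 and 77.4 CPM. The Control cultures were the most spread, and each group overlapped its neighbours in the order of means. No pairwise comparison called HSF1. Its estrogen effect was -0.0001 on the log2 scale with a 95% interval of -0.20 to 0.20 (adjusted p = 0.999), so a change beyond 0.20 in either direction lay outside the interval. For CoCl2 the interval was -0.41 to 0.12 (adjusted p = 0.697). Against CoCl2, CoCl2-Estrogen cultures were higher without overlap by 0.19 (adjusted p = 0.106), which passed the threshold in 1 of 14 alternatives, without CoCl2 replicate A (0.25, adjusted p = 0.0435).

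HSPA1A and HSPA1B encode nearly the same heat-inducible HSP70 from neighbouring gene copies, so how reads were split between them is uncertain. HSPA1A was at 304, 331 and 350.4 CPM in Control and at 401, 539 and 519.5 CPM in CoCl2 cultures. The level was 87.1, 99.3 and 90.4 CPM with estrogen and 247, 221 and 207 CPM with both agents. The 4 groups did not overlap. Estrogen left 28.1% of the Control mean, and both agents together left 68.6%. HSPA1A fell by 1.85 on the log2 scale with estrogen (SE 0.071, adjusted p = 6.64e-12) and was higher by 0.57 with CoCl2 (SE 0.11, adjusted p = 0.0226), a call lost in 4 of the 6 fits that left out 1 library. Against estrogen alone, both agents gave a level 2.49 times as high, the largest rise of the 10 genes in that comparison (1.32, SE 0.072, adjusted p = 1.39e-09).

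HSPA1B followed the same order of groups without overlap. Its level was 480.5, 424 and 488 CPM in Control and 639.8, 528 and 599 CPM in CoCl2 cultures. It was 157, 175 and 154 CPM in Estrogen and 344, 337 and 333 CPM in CoCl2-Estrogen cultures. HSPA1B fell by 1.53 with estrogen (SE 0.070, adjusted p = 4.81e-11) and stood 1.09 higher with both agents than with estrogen alone (SE 0.059, adjusted p = 1.39e-09). The CoCl2 difference of 0.35 missed the threshold (adjusted p = 0.0928) but passed it with DESeq2 (adjusted p = 0.00272), with no filter on low counts (0.0246), with all 12 libraries in 1 fit (0.0278), with the replicate block (0.0249) and without CoCl2 replicate B (0.0129). With the reads of both copies summed, CoCl2 raised the pair by 0.44 (adjusted p = 0.00481). HSPA1A made up 41.4% ± 2.54 of the pair's counts in Control (SD, n = 3), 45.2% ± 6.10 in CoCl2, 36.3% ± 0.660 in Estrogen and 39.9% ± 1.73 in CoCl2-Estrogen cultures.

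HSPA8, the constitutive HSP70 that also strips clathrin from vesicles, had the second largest fall of the 10 genes with estrogen. It has many processed pseudogenes, which could take or give reads. Control cultures had 1677, 1793 and 1637 CPM and CoCl2 cultures 1464, 1839 and 1709.6 CPM. Estrogen cultures had 366, 336 and 368 CPM, and cultures with both agents had 706, 597 and 664 CPM. Control and CoCl2 overlapped, and the remaining groups were apart. HSPA8 fell 4.83-fold with estrogen (-2.27 on the log2 scale, SE 0.064, adjusted p = 3.02e-13) and was 1.88 times as high with both agents as with estrogen alone (0.91, SE 0.063, adjusted p = 2.20e-08). The CoCl2 difference was -0.02 with an interval of -0.21 to 0.17 (adjusted p = 0.945).

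The inducible pair of HSP70 genes had 0.467 ± 0.0458 counts per HSPA8 count in Control (SD, n = 3), 0.648 ± 0.0654 in CoCl2, 0.716 ± 0.0878 in Estrogen and 0.861 ± 0.0635 in CoCl2-Estrogen cultures. Each treated group lay above Control without overlap. Over 8 two-sided exact permutation tests of this ratio and of the HSPA1A share, adjusted p ran from 0.16 to 0.5, and 3 cultures against 3 cannot give an unadjusted p below 0.1.

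DNAJB1, the J-domain partner that feeds clients to HSP70 and helps to silence HSF1, had a smaller log2 change with estrogen than the 3 HSP70 genes. Its level was 259, 238 and 252 CPM in Control and 328, 285 and 317 CPM in CoCl2 cultures. With estrogen it was 204, 192 and 182 CPM, and with both agents 219, 209 and 202 CPM, and these groups overlapped each other. DNAJB1 fell by 0.39 with estrogen (SE 0.062, adjusted p = 4.25e-05) and by 0.28 with both agents (SE 0.060, adjusted p = 8.97e-04). CoCl2 cultures were above Control without overlap, but the difference of 0.31 was not called (adjusted p = 0.0604), although it was under the same 5 alternatives as HSPA1B, with adjusted p from 0.00272 to 0.0333. Both agents against estrogen alone gave 0.16 (interval 0.03 to 0.28, adjusted p = 0.0797), which passed the threshold with upper-quartile scaling (0.17, adjusted p = 0.0490) and with the replicate block (0.16, adjusted p = 0.00806).

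HSPH1, the HSP110 that swaps the nucleotide of HSP70 and helps to pull apart aggregates, was at 314, 313 and 291 CPM in Control and at 313, 324 and 336 CPM in CoCl2 cultures. Estrogen cultures were close to each other at 209.6, 208 and 206 CPM, and CoCl2-Estrogen cultures had 293, 284 and 290.2 CPM. HSPH1 fell by 0.57 with estrogen (SE 0.059, adjusted p = 4.51e-07). With both agents it overlapped Control, and the difference of -0.11 was not called (interval -0.23 to 0.01, adjusted p = 0.106), although it was without Control replicate C (-0.15, adjusted p = 0.0305). It stood 0.51 above estrogen alone (SE 0.051, adjusted p = 1.93e-06). Against CoCl2 it fell by 0.18 (adjusted p = 0.0224), a call that was lost without CoCl2 replicate C (0.110) or without CoCl2-Estrogen replicate A (0.0601), B (0.0837) or C (0.0608).

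BAG3, which releases clients from HSP70 and steers aggregates to autophagy, was called higher with CoCl2 and was not called with estrogen. It was at 61.8, 57.7 and 68.3 CPM in Control and at 82.2, 83.3 and 90.0 CPM in CoCl2 cultures, which did not overlap. Its level was 56.4, 59.8 and 57.2 CPM with estrogen and 69.8, 65.6 and 65.1 CPM with both agents, each overlapping Control. BAG3 was higher by 0.45 with CoCl2 (SE 0.086, adjusted p = 0.0285), a call lost in 3 of the 6 fits that left out 1 library. The estrogen difference was -0.13 (interval -0.28 to 0.02, adjusted p = 0.119), past the threshold with upper-quartile scaling (-0.20, adjusted p = 0.0226) and library totals (-0.26, adjusted p = 0.00485), and that of both agents was 0.07 (adjusted p = 0.421). In the presence of CoCl2, estrogen lowered BAG3 by 0.37 (SE 0.084, adjusted p = 0.00206). The rise of 0.24 from estrogen to both agents (adjusted p = 0.0202) was not called without Estrogen replicate A (0.110) or without CoCl2-Estrogen replicate A (0.0948).

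The CoCl2 calls depended on which libraries were included. HSPA1A lost its call without Control replicate A (adjusted p = 0.155), B (0.0819) or C (0.0744) or CoCl2 replicate C (0.141), with log2 changes of 0.52 to 0.62 in these fits. BAG3 lost it without Control replicate A (adjusted p = 0.197) or B (0.147) or CoCl2 replicate C (0.146), with log2 changes of 0.40 to 0.44. Without CoCl2 replicate B, the library that stood apart, 4 of the 10 genes were called higher, beside 1.38% of 15781 tested genes, HSPA1A by 0.49 (adjusted p = 0.0323), BAG3 by 0.46 (0.0116), HSPA1B by 0.42 (0.0129) and DNAJB1 by 0.37 (0.0190).

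HSP90AA1 encodes the stress-responsive HSP90 of the cytosol. It was at 1929, 1929 and 1943 CPM in Control, the tightest of the groups. CoCl2 cultures spread over 1921, 2260.3 and 2147 CPM and overlapped Control. The level was 749, 735 and 779 CPM with estrogen and 965, 903 and 979.6 CPM with both agents, with no overlap. HSP90AA1 fell by 1.37 with estrogen (SE 0.054, adjusted p = 9.21e-12) and by 1.05 with both agents (SE 0.049, adjusted p = 2.13e-10), and it was 0.36 higher with both agents than with estrogen alone (SE 0.054, adjusted p = 1.61e-04). The CoCl2 difference was 0.13 (interval -0.03 to 0.28, adjusted p = 0.539). Processed pseudogenes of HSP90AA1 leave its counts somewhat uncertain.

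HSPB1, the small heat shock protein HSP27, had the largest estrogen effect of the 10 genes. Its level was 80.1, 76.9 and 89.6 CPM in Control and 87.6, 89.7 and 91.4 CPM in CoCl2 cultures, which overlapped. With estrogen it was 10.6, 15.7 and 12.7 CPM, from 182 to 219 counts per library. Both agents together gave 25.3, 21.6 and 20.7 CPM, above each Estrogen culture and below each Control culture. HSPB1 fell 6.45-fold with estrogen (-2.69, SE 0.11, adjusted p = 1.50e-11), to 15.8% of the Control mean. It was 3.71-fold below Control with both agents (-1.89, SE 0.086, adjusted p = 1.63e-10) and 1.79 times as high as with estrogen alone (0.84 on the log2 scale, SE 0.13, adjusted p = 2.33e-04).

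HSPD1, the mitochondrial HSP60 that encloses proteins for folding after import, was at 1491, 1451 and 1495 CPM in Control and at 1534, 1731 and 1550.4 CPM in CoCl2 cultures. Estrogen cultures had 903, 899 and 915 CPM and CoCl2-Estrogen cultures 1078, 984 and 1060.2 CPM. No groups overlapped, although the CoCl2 difference of 0.12 was not called (adjusted p = 0.541). HSPD1 fell by 0.72 with estrogen (SE 0.053, adjusted p = 8.53e-09) and was 0.23 higher with both agents (SE 0.054, adjusted p = 0.00671). It shares a bidirectional promoter with HSPE1, the co-chaperonin that closes the HSPD1 chamber. HSPE1 went from 150.1 ± 10.5 CPM in Control to 60.1 ± 4.63 CPM with estrogen (SD, n = 3), a fall of 1.33 on the log2 scale (SE 0.076, adjusted p = 5.46e-10). Its reads may be shared with the readthrough transcript HSPE1-MOB4, and those of HSPD1 with processed pseudogenes.

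The estrogen effect was then set beside itself with and without CoCl2, using groups that share no culture. A test of the difference between these effects, the interaction over all 12 libraries, called 5 of the 10 genes positive and 0 negative (edgeR and DESeq2 alike, with 1, BAG3, negative at an unadjusted p under 0.05), with 2.10% of 16681 tested genes positive and 3.70% negative. A positive value means a smaller fall, or a larger rise, with estrogen where CoCl2 was present. HSPA8 fell by 2.27 without and by 1.36 with CoCl2, a difference of 0.93 (SE 0.12, adjusted p = 9.38e-05). HSPA1A fell by 1.85 and 1.13, a difference of 0.75 (SE 0.14, adjusted p = 0.00319). For HSPA1B the falls were 1.53 and 0.82, which differed by 0.74 (SE 0.11, adjusted p = 5.57e-04). HSPB1 fell by 2.69 and 2.00 (0.71, SE 0.16, adjusted p = 0.0106), and HSPH1 by 0.57 and 0.18 (0.42, SE 0.087, adjusted p = 0.00665). These 5 calls held in each of the 12 fits that left out 1 library, CoCl2 replicate B among them. Effects in 1 background come from fits on 6 libraries and their difference from the fit on 12, so they need not subtract exactly.

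The other 5 genes did not pass the interaction test, which does not show that their effects were equal. HSP90AA1 had a difference of 0.23 (interval 0.03 to 0.43, adjusted p = 0.189) and HSPD1 of 0.11 (interval -0.08 to 0.29, 0.58). DNAJB1 and BAG3 had negative values, -0.16 (interval -0.37 to 0.05, adjusted p = 0.435) and -0.21 (interval -0.42 to -0.0041, 0.26). HSF1 was at 0.22 (interval -0.08 to 0.51, adjusted p = 0.458).

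**Figure D3:**
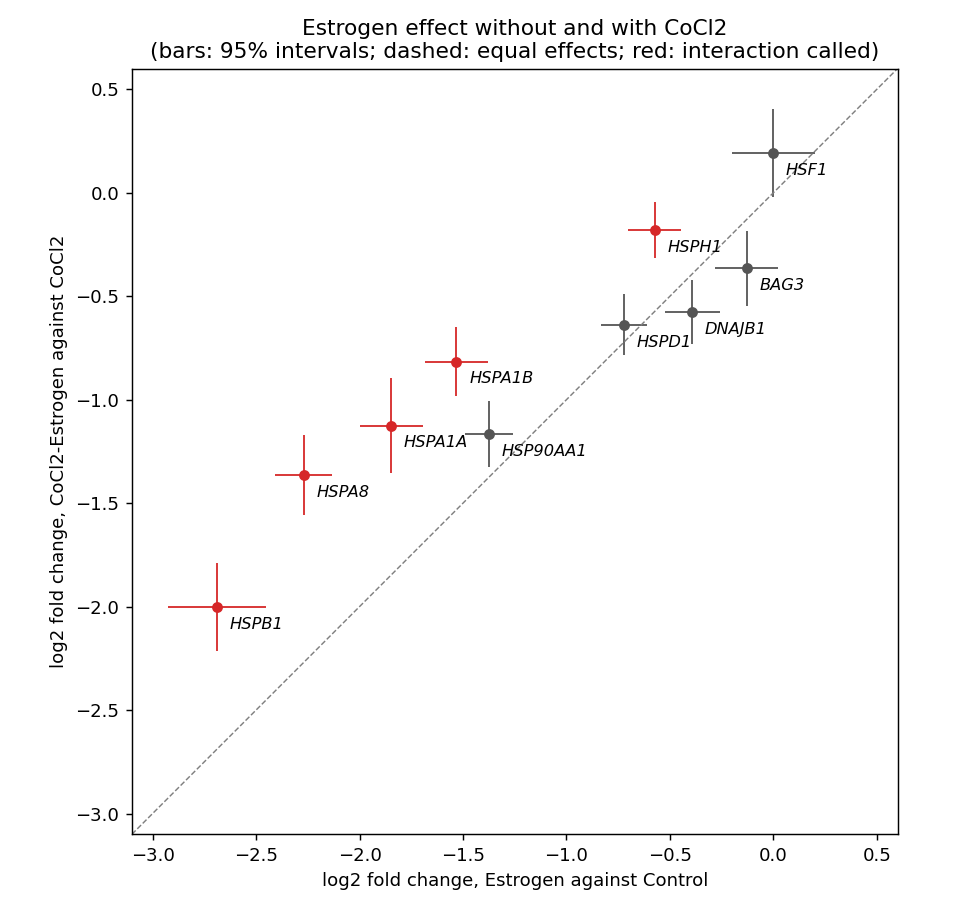
Log2 fold change with estrogen in the absence (x axis) and presence (y axis) of CoCl2, 1 point per gene with 95% intervals. The dashed line marks equal effects and red marks an adjusted interaction p of at most 0.05. HSPB1, HSPA8, HSPA1A, HSPA1B and HSPH1 lie above the line in red, and DNAJB1 and BAG3 lie below it in grey.

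Beyond the 10 genes, 102 further cytosolic, nuclear and mitochondrial chaperone genes were read in 9 lists. Estrogen lowered 52 of the 99 tested (52.5%) and raised 26 (26.3%), against 34.2% and 34.7% of all tested genes, with a median of -0.23. Counts for HSP90 and its co-chaperones were 13 lower and 2 higher of 18. SUGT1, a co-chaperone of the kinetochore and innate immunity, fell by 1.48 (SE 0.085, adjusted p = 6.02e-10), HSP90AB1, the constitutive HSP90, by 0.92 (SE 0.055, adjusted p = 1.005e-09), and PTGES3, the p23 that stabilizes closed HSP90, by 0.93 (SE 0.062, adjusted p = 3.07e-09). HSP90AB1 was at 2455 ± 110.5 CPM in Control and 1312 ± 41.1 CPM in Estrogen cultures (SD, n = 3).

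In the list of TRiC, the cytosolic chaperonin that folds actin and tubulin, and prefoldin, which hands clients to it, 10 of 14 genes were lower and 2 higher. Of all tested genes, 34.2% were lower and 34.7% higher. TCP1 fell by 1.05 (SE 0.064, adjusted p = 1.08e-09) and CCT4 by 0.96 (SE 0.062, adjusted p = 2.32e-09). Of 8 HSP70 and HSP110 relatives, 5 were lower and 1 higher, HSPA4 falling by 0.99 (SE 0.058, adjusted p = 7.23e-10) and HSPA4L by 0.83 (SE 0.088, adjusted p = 5.84e-07). The 1 that rose, named after its values were seen, was HSPA6, a strictly heat-inducible HSP70, at 0.0691 ± 0.0303 CPM in Control and 0.585 ± 0.307 CPM in Estrogen cultures (SD, n = 3; adjusted p = 0.00348 by edgeR), with at most 18 counts in any library. BAG and other HSP70 linking factors had 4 lower and 2 higher of 8. Among them STUB1, the CHIP ubiquitin ligase, fell by 1.65 (SE 0.11, adjusted p = 2.01e-09) and ST13, the HSP70-HSP90 linker Hip, by 0.90 (SE 0.073, adjusted p = 2.99e-08).

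Other lists were mixed under estrogen, where 34.7% of all tested genes were higher and 34.2% lower. J-domain co-chaperones had 6 of 16 higher (37.5%) and 5 lower (31.2%), near those shares. DNAJB6 rose by 0.87 (SE 0.063, adjusted p = 8.06e-09) and DNAJA1 fell by 0.77 (SE 0.059, adjusted p = 1.56e-08). Mitochondrial chaperones and proteases had 7 lower and 6 higher of 15, with TRAP1, the mitochondrial HSP90, falling by 1.14 (SE 0.065, adjusted p = 5.39e-10) and GRPEL2, a nucleotide exchange factor of mitochondrial HSP70, rising by 1.29 (SE 0.071, adjusted p = 3.56e-10). Of 10 other genes known to be induced by heat shock, 5 rose and 5 fell. IER5, an immediate early gene that enhances HSF1 activity, rose from 14.6 ± 1.70 to 104 ± 17.1 CPM (SD, n = 3), by 2.81 on the log2 scale (SE 0.11, adjusted p = 1.23e-11). ZFAND2A, a proteasome adaptor, rose by 1.26 (SE 0.064, adjusted p = 1.31e-10), and SERPINH1, the collagen chaperone HSP47, fell by 1.74 (SE 0.065, adjusted p = 4.75e-12). The small heat shock proteins had 2 lower and 1 higher of 5 tested, with CRYAA falling by 1.95 (SE 0.13, adjusted p = 3.64e-09), and the 5 HSF regulators 1 lower and 1 higher, with HSBP1, which binds HSF1 trimers, falling by 0.25 (SE 0.061, adjusted p = 0.00202).

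CoCl2 alone called 4 of the 99 list genes higher (4.04%), beside 1.31% of all tested genes. HMOX1, the stress-inducible heme oxygenase, rose by 1.14 (SE 0.10, adjusted p = 1.32e-04), DNAJB4 by 0.91 (SE 0.11, adjusted p = 0.00134) and DEDD2 by 0.55 (SE 0.073, adjusted p = 0.00202). In CoCl2-Estrogen against Control, 46 of 99 were lower (46.5%) and 23 higher (23.2%), beside 33.2% and 32.3% of all tested genes. Against CoCl2, 45 were lower (45.5%) and 22 higher (22.2%), beside 30.8% and 30.1%.

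From estrogen alone to both agents, 28 of 99 list genes rose (28.3%) and 3 fell (3.03%), against 8.14% and 8.85% of all tested genes. The list of HSP90 and its co-chaperones had 9 of 18 higher, and TRiC and prefoldin 7 of 14. AHSA1, the activator of the HSP90 ATPase, rose by 0.59 (SE 0.072, adjusted p = 1.90e-05), DNAJA1 by 0.40 (SE 0.060, adjusted p = 1.45e-04), CCT8 by 0.36 (SE 0.062, adjusted p = 6.24e-04) and HSPA4 by 0.32 (SE 0.057, adjusted p = 6.86e-04). HMOX1 rose by 1.94 (SE 0.068, adjusted p = 7.82e-12). IER5 fell by 0.47 (SE 0.10, adjusted p = 0.00253) and GRPEL2 by 0.51 (SE 0.070, adjusted p = 6.64e-05). In the interaction 5 of 100 tested list genes were positive and 4 negative, beside 2.10% and 3.70% of all tested genes. HMOX1 (0.80, SE 0.13, adjusted p = 7.72e-04), DNAJB4 (-0.84, SE 0.16, adjusted p = 0.004) and ZFAND2A kept their call in each fit that left out 1 library. FKBP4, AHSA1, IER5, CCT8 and CCT4 lost theirs in 6 to 8 of the 12.

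Chaperones of the endoplasmic reticulum, which answer mainly to the unfolded protein response, were read for comparison. Estrogen lowered 9 of 16 and raised 4, with a median of -0.82, beside 34.2% lower and 34.7% higher among all tested genes. PDIA4, a disulfide isomerase, fell by 2.17 (SE 0.058, adjusted p = 1.82e-13) and CALR, calreticulin, by 1.44 (SE 0.056, adjusted p = 7.36e-12), while DNAJB9, a J-domain protein of the lumen, rose by 2.13 (SE 0.072, adjusted p = 1.86e-12). Between estrogen alone and both agents, 13 of 16 rose (81.2%), with a median of 0.36, beside 8.14% of all tested genes. PDIA4 rose by 0.44 (SE 0.058, adjusted p = 3.47e-05) and HSP90B1, the GRP94 of the lumen, by 0.37 (SE 0.053, adjusted p = 9.17e-05). The interaction was positive in 5 of 16, beside 2.10% of all tested genes, among them SDF2L1 (0.99, SE 0.16, adjusted p = 9.31e-04) and PDIA4 (0.53, SE 0.089, adjusted p = 0.00137).

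**Figure D4:**
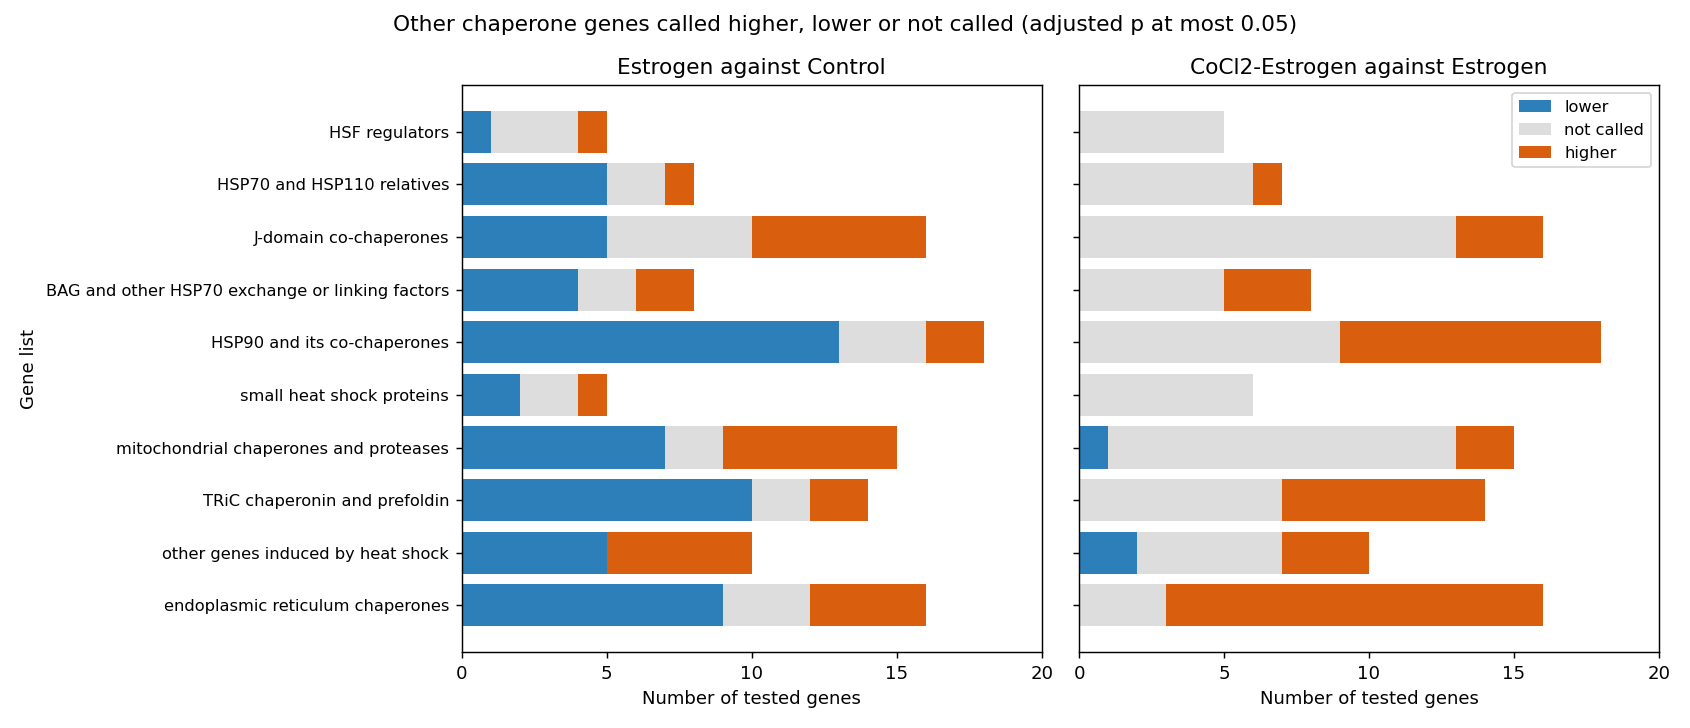
Number of tested genes (x axis) called lower, not called or called higher in each list of further chaperone genes (y axis), in Estrogen against Control (left) and CoCl2-Estrogen against Estrogen (right). On the left 13 of 18 genes of HSP90 and its co-chaperones are lower (34.2% of all tested genes). On the right 13 of 16 endoplasmic reticulum chaperones are higher (8.14% of all tested genes).

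Among 9637 genes that averaged 10 CPM or more, the profile of HSPB1 over the 12 cultures was most like those of KDELR3 (Pearson r = 0.997), ARFIP2 (0.995) and PIR (0.995). HSPA1A was most like AHSA1 (0.988), LDHA (0.979) and HSPA1B (0.978). HSF1, whose group means spanned 0.21 on the log2 scale against 2.80 for HSPB1 and 2.39 for HSPA1A, was most like NCLN (0.923), CIAO3 (0.921) and TXNRD2 (0.917). These values describe 12 cultures in 4 groups that share their libraries and scaling, and follow mainly the group means where those are far apart.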

How the data were processed

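RNA-Seq of 12 HepG2 cultures (4 groups of 3) was analysed, and groups were taken from the sample labels. Per the labels and methods, stranded total RNA libraries were made after Ribo-Zero Plus depletion of ribosomal RNA, contaminant reads were removed with Bowtie2 2.2.5, and the rest were aligned with STAR 2.7.8a in Partek Flow and counted on RefSeq transcripts. The labels list hg38 and mm10 without saying which table each belongs to. The authors deposited estimated counts per gene, unscaled, with 23.8% of values not whole. Of 28278 genes, 7034 had no count. The mouse table of the series was not used here.

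Counts were rounded and tested in R 4.3.3 with edgeR 4.0.16 (glmQLFit, glmQLFTest), TMM scaling, a filter that kept genes over 5 counts in 1 or more libraries of the fit and a Benjamini-Hochberg threshold of 0.05. Printed CPM use TMM over the 12 libraries, standard errors are the log2 change divided by the square root of F, and intervals are at 95%. The interaction was fitted on 12 libraries. DESeq2 1.42.0, the test of the study's methods, other scalings, other filters, all 12 libraries in 1 fit, the replicate letter as a block, the summed HSPA1A and HSPA1B counts, and each library left out were run as alternatives. The functions were tested on simulated counts with far fewer changed genes than were called with estrogen. That run does not show how scaling fares in the estrogen comparisons.

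The members and the gene lists (10 lists, 118 genes beside the members) were chosen with earlier results of these data known. Genes outside the members were named as up to 3 called genes per list with the smallest adjusted p in each comparison, of which part is given and 1 is not reported here, and as the 3 most similar profiles of HSF1, HSPB1 and HSPA1A. No source used here says how cultures A, B and C of a group were kept apart, so p-values measure only the spread between these samples, which may be technical. With 3 cultures per group and 13592637 to 21701480 counts per library, members had at least 182 counts in each library, and replicates differed beyond counting error. No human sequence or gene length was used.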

Additional observations from a re-analysis of the deposited data

Results flagged for a closer look

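In 5 of the 10 genes the estrogen effect differed between cultures without and with CoCl2, by the interaction test of edgeR over 12 libraries. The difference on the log2 scale was 0.93 for HSPA8 (adjusted p = 9.38e-05), 0.75 for HSPA1A (0.00319), 0.74 for HSPA1B (0.000557), 0.71 for HSPB1 (0.0106) and 0.42 for HSPH1 (0.00665). In each the fall with estrogen was smaller where CoCl2 was present. The split of reads between HSPA1A and HSPA1B is uncertain, and with their counts summed the difference was 0.73 (adjusted p = 0.000164). Among all 16681 genes, 2.10% were positive in this test. The range over the alternatives was 0.84 to 0.99 for HSPA8, 0.62 to 0.81 for HSPA1A, 0.65 to 0.80 for HSPA1B, 0.55 to 0.87 for HSPB1 and 0.38 to 0.47 for HSPH1, and the highest adjusted p among them was 0.0488, for HSPB1.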

How the results depend on the processing

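Of 1693 values recomputed for single genes under the alternatives, 1609 kept their direction and their side of the threshold, 54 lost a call, 18 gained one and 12 changed sign, all in members close to 0. HSF1 in Estrogen against Control (-0.0001) became 0.0121 with DESeq2, 0.0128 with median-ratio scaling, 0.0071 with filterByExpr and 0.0058 with the replicate block, and ran from -0.104 to 0.106 with 1 library left out. In CoCl2-Estrogen against Control, HSF1 became -0.0622 with library totals and ran from -0.0541 to 0.147 with 1 library left out, and BAG3 became -0.0282 with library totals. HSPA8 in CoCl2 against Control ran from -0.0991 to 0.0684 with 1 library left out.

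In CoCl2 against Control, the genes called (229) were 345 with DESeq2 and 359 with all 12 libraries in 1 fit, and the members called (2) were 4 with DESeq2, no filter, all 12 libraries or the replicate block and 1 with library totals, where BAG3 lost its call. The added members were HSPA1B and DNAJB1. Leaving out 1 library gave 136 (without Control replicate A) to 249 genes (without CoCl2 replicate A), with 147 without Control replicate B and 140 without CoCl2 replicate C, and 0 to 4 members there, 10316 to 11012 genes and 8 members in Estrogen against Control, 9820 to 10351 and 7 to 8 in CoCl2-Estrogen against Control, 8938 to 9973 and 8 to 10 against CoCl2, 1671 (without Estrogen replicate A) to 2493 and 7 to 8 against Estrogen, and 678 to 1044 and 5 in the interaction. The cause of these moves was not tested.

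Scaling by library totals put the median log2 change of all genes at -0.133 in Estrogen against Control and at -0.104 in CoCl2-Estrogen against Control. BAG3 was then called lower with estrogen (-0.26; -0.20 with upper-quartile scaling) and HSPH1 lower with both agents (-0.21), each to be read against that shift. Of the interaction calls 36.2% were positive, and 51.6% with library totals. The thinnest member values were those of HSPB1 with estrogen, at 182 to 219 counts per library.

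Same-letter cultures did not regularly deviate together (r from -0.31 to 0.289 over 18 pairs, 5 over 0.1). In the 5 pairwise comparisons 1, 1, 0, 0 and 2 of 3 letters correlated best with their own. Deviations from a mean of 3 cultures are tied to each other, so this check cannot decide whether the letter marks a pairing. With the replicate block, more genes were called in CoCl2 against Control (327, from 229) and in CoCl2-Estrogen against Estrogen (3791, from 2706). Fewer were called in Estrogen against Control (10620, from 11217), CoCl2-Estrogen against Control (9902, from 10598), CoCl2-Estrogen against CoCl2 (9367, from 9860) and the interaction (771, from 967). HSPH1 against CoCl2 then had an adjusted p of 0.0683, and DNAJB1 against Estrogen one of 0.00806.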
